A study of Mus musculus with 12 samples.

Results

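The 38 genes described here are known from cartilage and bone: transcription factors, matrix proteins, signals and enzymes of chondrocytes, osteoblasts, osteocytes and osteoclasts. They were followed on Clariom S Mouse arrays, which measure each gene through a set of short probes in its exons, in RNA of whole mouse embryos from 5 stages. Members were found by gene symbol in the deposited table. All 38 were found, each as 1 probe set that carries that symbol alone, out of 22664 gene symbols on 22206 probe sets. Early embryos were pooled, in numbers that are not stated: 2 arrays hold pronuclear embryos of E0.5, 2 hold 2-cell embryos of E1.5 and 2 hold morulae of E2.5. Each later array holds a whole single embryo, 3 of them from E10.5 and 3 from E16.5. All came from superovulated females after natural mating, with E0.5 set at the plug. Pronuclear embryos were rinsed in KSOM, a culture medium for early embryos, and incubated in it. Embryos of the 2-cell and morula stages were collected 1 and 2 days after the plug, without a statement of whether they came from that culture, while the later embryos were dissected from their mothers and rinsed in saline. No strain, sex, mutation or drug comparison is given in the labels. The labels do not say whether embryos or pools came from separate mothers, and p-values cover only the spread seen among these samples.

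Most of the skeleton is first laid down as cartilage. In mesenchymal condensations Sox9, with Sox5 and Sox6, switches on the genes of cartilage matrix, made of type II, IX and XI collagen and of aggrecan held by link protein. In the growth plate chondrocytes stop dividing, enlarge and make type X collagen, osteoblasts driven by Runx2 and Sp7 (osterix) then lay down bone matrix, and osteoclasts, which descend from the macrophage lineage, resorb mineralized matrix with acid, cathepsin K and metalloproteinases. Several of these genes are also active outside the skeleton, for example Sox9 in neural crest and gonads, Spp1 in uterus and macrophages, and Acp5 in macrophages.

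Signals are deposited log2 values, and changes are in log2 units, which on these arrays are not calibrated as folds of RNA. Array medians lay between 6.19 and 6.59. Signals of different probe sets are not compared with each other. Instead, each was set against the 95th percentile of 1407 olfactory and vomeronasal receptor probe sets, by stage 5.99 (pronuclear), 6.50 (2-cell), 6.17 (morula), 5.48 (E10.5) and 5.35 (E16.5). A gene is called within the receptor range at a stage unless every array of the stage lies above this percentile. A rise that starts there, or a fall that ends there, is a lower bound in size, and a change whose 2 stages both lie there can follow the background. Changes between consecutive stages were tested with limma over all 22206 probe sets, and a member passed at a Benjamini-Hochberg adjusted p below 0.05.

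The set was mostly dim up to and including E10.5 and mostly above the receptor range at E16.5. Members above the receptor range on every array of their stage numbered 9 at the pronuclear, 6 at the 2-cell and 9 at the morula stage, then 14 at E10.5 and 32 at E16.5. Over all probe sets the share above the range was 50.6%, 44.9%, 46.8%, 56.0% and 60.4% in the same order of stages. The highest stage mean was at E16.5 for 29 of 38 members (76.3%, against 19.4% of all probe sets). At E10.5 it was for Sox5, Sox9, Hapln1, Dlx5 and Mepe, in morulae for Col9a2 and Ihh, and in 2-cell embryos for Runx2 and Dlx6. The 6 members still within the range at E16.5 were Col9a2, Matn3, Ihh, Dlx5, Dlx6 and Mepe. These were not clear of background on every array. In embryo 2 Col9a2 (6.79), Matn3 (5.90), Dlx6 (5.72) and Ihh (5.38) exceeded the percentile of 5.35, and Dlx5 (5.74) did in embryo 3. No embryo did for Mepe. In RNA of whole embryos, fewer cells of a type and less RNA per cell cannot be told apart.

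**Figure D1:**
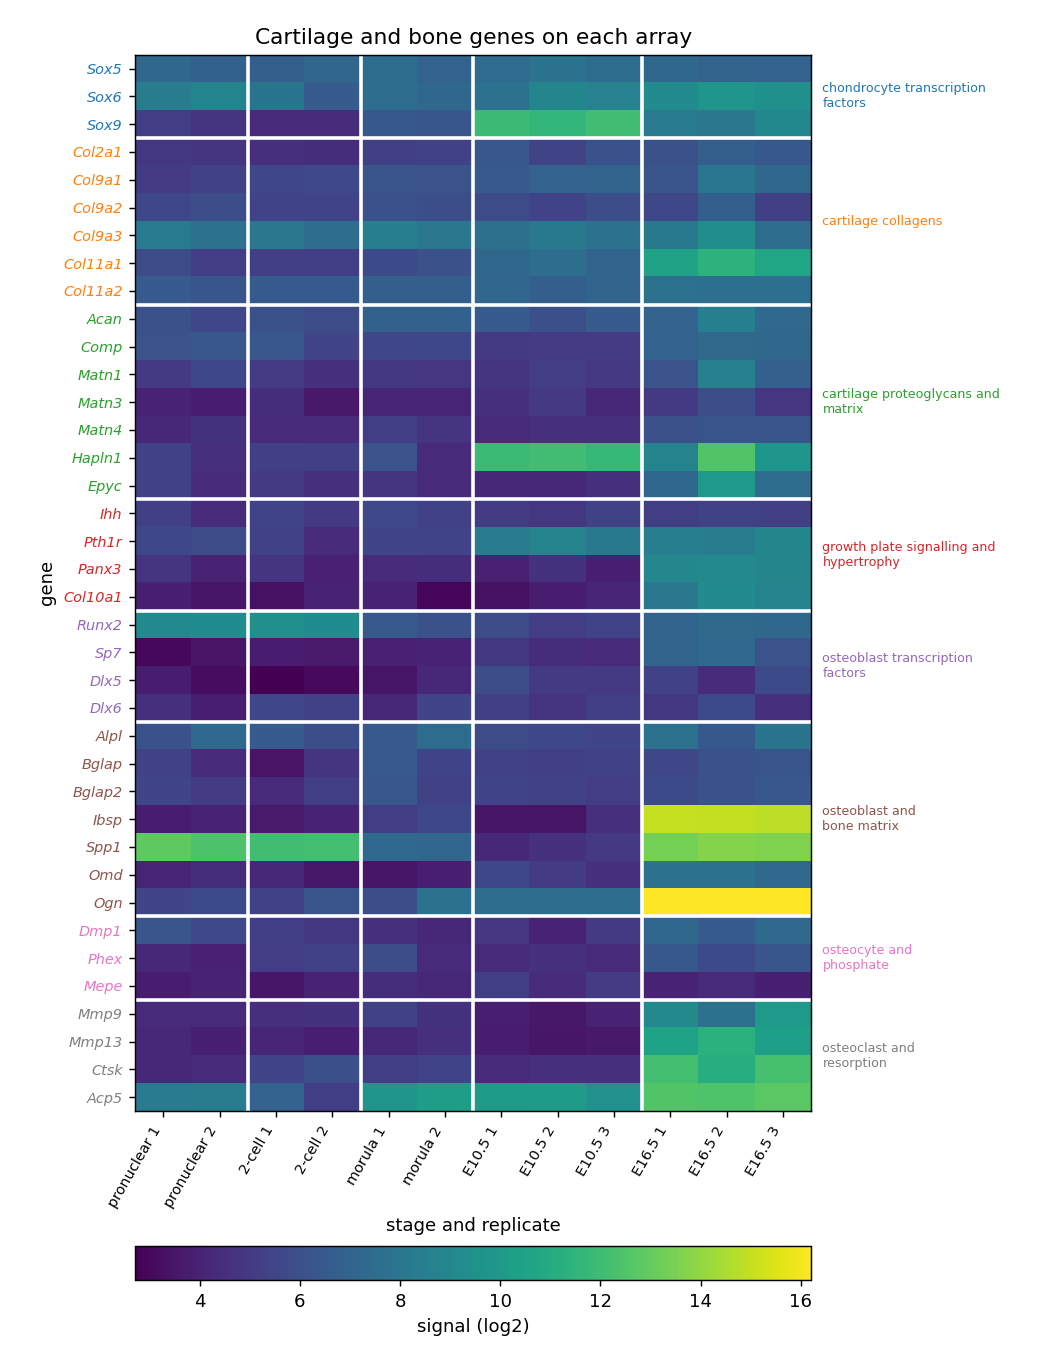
Log2 signal (colour scale) of the 38 genes (rows, grouped and coloured by role) on the 12 arrays (columns, in order of stage). Ibsp, Ogn, Mmp13 and Ctsk are bright in the E16.5 columns, Spp1 is bright in pronuclear, 2-cell and E16.5 columns, and Sox9 and Hapln1 are brightest at E10.5 apart from embryo 2 of E16.5 for Hapln1.

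Between E10.5 and E16.5, 5 of 7 genes of bone matrix, all 4 of resorption and 7 of the 13 cartilage collagen and matrix genes rose. Of the 38 members 23 were higher in E16.5 embryos (60.5%, where 17.3% of all probe sets were), 2 were lower (5.26%, where 20.1% of all probe sets were) and 13 did not pass. The median change was 1.71 over the members and -0.08 over all probe sets. Of the 23 rises 16 started within the receptor range and are lower bounds. Sox9 and Mepe fell, Mepe with both stages within the range.

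**Figure D2:**
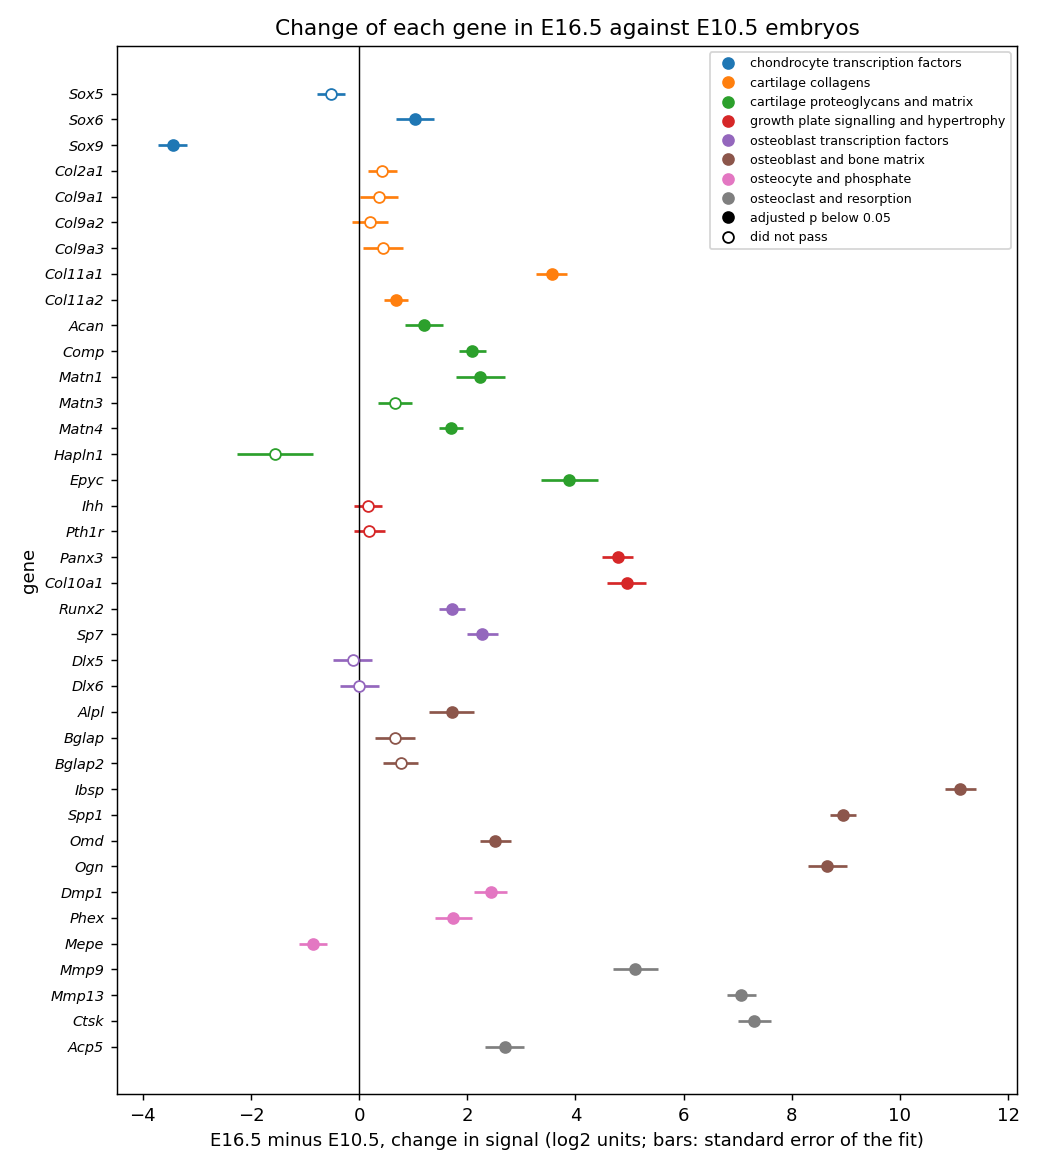
Change in log2 signal in E16.5 against E10.5 embryos for each gene (points, coloured by role, with the standard error of the fit; 3 embryos per stage), filled where the adjusted p was below 0.05. Ibsp lies farthest to the right at 11.12 and Sox9 farthest to the left at -3.45.

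The 5 largest rises were those of Ibsp, Spp1, Ogn, Ctsk and Mmp13. Ibsp encodes bone sialoprotein, an acidic protein that nucleates mineral, and lies at chr5:104299171-104311472 on the plus strand (mm10). Its signals were 15, 14.97 and 14.86 in E16.5 embryos, against 3.52, 3.45 and 4.52 in E10.5 embryos. The embryos of the stages are far apart, and all 3 of E10.5 lie within the receptor range, so the rise of 11.12 ± 0.29 (SE, adjusted p = 3.32e-13) is a lower bound. Spp1, osteopontin, a secreted phosphoprotein that binds integrins and mineral, lies at chr5:104435111-104441053 (plus strand). It read 13.39, 13.68 and 13.62 in E16.5 embryos and 4.24, 4.65 and 4.94 in E10.5 embryos, a rise of at least 8.95 ± 0.24 (SE, adjusted p = 5.74e-13).

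Ogn, osteoglycin or mimecan, is a small leucine-rich proteoglycan of bone, tendon, cornea and vessels and lies at chr13:49608071-49624500 (plus strand). Its signals were 16.18, 16.20 and 16.21 in E16.5 embryos, against 7.61, 7.54 and 7.47 in E10.5 embryos. Both stages are clear of the range, and the 3 embryos of each lie close together, far closer than the rise of 8.66 ± 0.36 (SE, adjusted p = 6.44e-11). Ctsk, cathepsin K, the collagen-degrading protease of osteoclasts, lies at chr3:95499210-95509387 (plus strand). It measured 12.17, 11.10 and 12.27 in E16.5 embryos and 4.38, 4.59 and 4.64 in E10.5 embryos, a rise of at least 7.31 ± 0.30 (SE, adjusted p = 4.37e-11). Mmp13, collagenase 3, made by late hypertrophic chondrocytes and osteoblasts, lies at chr9:7272514-7283333 (plus strand). Signals of 10.52, 11.34 and 10.35 in E16.5 embryos stood against 3.79, 3.55 and 3.65 in E10.5 embryos, a rise of at least 7.07 ± 0.27 (SE, adjusted p = 2.83e-11).

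The bases just before the annotated starts of these 5 genes are shown because the genes rose most, and because RUNX, SOX and AP-1 factors are known regulators of skeletal genes. Each sequence comes from RefSeq (GRCm38.p6, plus strand, 5′ to 3′) and ends at the base before the start site, except for Ibsp, which ends before the earlier start in the array's annotation. Capitals mark the RUNX letters ACCACA, the SOX letters ACAATG and the AP-1 letters TGANTCA, searched on both strands.
Ibsp, chr5:104299037-104299170: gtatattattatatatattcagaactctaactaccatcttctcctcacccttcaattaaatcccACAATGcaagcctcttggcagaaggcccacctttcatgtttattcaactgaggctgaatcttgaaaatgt
Spp1, chr5:104434861-104435110: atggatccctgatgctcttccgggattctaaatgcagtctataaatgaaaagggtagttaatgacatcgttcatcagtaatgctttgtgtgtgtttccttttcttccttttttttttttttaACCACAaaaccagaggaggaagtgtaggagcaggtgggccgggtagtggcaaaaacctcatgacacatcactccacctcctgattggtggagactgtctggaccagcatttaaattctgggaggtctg
Ogn, chr13:49607765-49608014: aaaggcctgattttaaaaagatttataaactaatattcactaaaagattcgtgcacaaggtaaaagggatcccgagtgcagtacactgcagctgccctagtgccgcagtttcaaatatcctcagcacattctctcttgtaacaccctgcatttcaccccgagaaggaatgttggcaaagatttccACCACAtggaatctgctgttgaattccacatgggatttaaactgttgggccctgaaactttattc
Ctsk, chr3:95498960-95499209: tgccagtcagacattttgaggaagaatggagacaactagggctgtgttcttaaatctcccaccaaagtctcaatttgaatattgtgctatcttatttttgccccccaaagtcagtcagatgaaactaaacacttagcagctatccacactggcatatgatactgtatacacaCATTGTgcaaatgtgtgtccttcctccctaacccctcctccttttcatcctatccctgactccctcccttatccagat
Mmp13, chr9:7272264-7272513: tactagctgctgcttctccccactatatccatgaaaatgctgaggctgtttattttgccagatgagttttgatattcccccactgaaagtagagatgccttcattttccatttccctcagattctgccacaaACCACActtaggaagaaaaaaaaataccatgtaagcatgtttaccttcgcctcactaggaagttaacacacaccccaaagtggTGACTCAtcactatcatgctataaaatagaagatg
Counted back from the RefSeq start site, the RUNX letters stood at -128 to -123 in Spp1, at -65 to -60 in Ogn and at -118 to -113 in Mmp13. The SOX letters stood at -186 to -181 in Ibsp and, on the other strand, at -78 to -73 in Ctsk. Mmp13 also held the AP-1 letters, at -35 to -29. A window of 250 bases was found for 28 of the 38 members, some with several start sites. The RUNX letters were in at least 1 window of 10 of these 28 (4303 of all 27025 genes, 15.9%), the SOX letters in 6 (12.2%) and the AP-1 letters in 1, Mmp13 (7.82%). Over all 32851 windows the shares were 14.0%, 10.7% and 6.75% in the same order. Among the 19 risers with a window, 7 held the RUNX letters and 5 the SOX letters. These are matches of letters and say nothing of binding.

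Of the chondrocyte transcription factors, Sox9 peaked at E10.5 and fell, while Sox6 was slightly higher and Sox5 did not pass. Sox9, the master regulator of chondrocyte fate (chr11:112782210-112787760), had 5.18 and 4.81 in pronuclear embryos, 4.38 and 4.43 in 2-cell embryos, 6.43 and 6.34 in morulae, 11.98, 11.64 and 12.08 at E10.5 and 8.29, 8.07 and 8.99 at E16.5. It left the receptor range in morulae, narrowly, and each of the last 3 stages stands apart from the one before. The changes were 1.98 ± 0.32 from the 2-cell stage to the morula (SE, adjusted p = 0.000145), 5.51 ± 0.30 from there to E10.5 (adjusted p = 5.74e-10) and -3.45 ± 0.27 from E10.5 to E16.5 (adjusted p = 7.18e-08). Sox6, its partner in early chondrocytes, was above the range at every stage and read 9.24, 9.77 and 9.46 in E16.5 embryos, against 7.76, 8.89 and 8.72 in E10.5 embryos. The groups do not overlap, but the change of 1.03 ± 0.35 (SE, adjusted p = 0.0312) was 0.68 without embryo 1 of E10.5 (adjusted p = 0.176) and did not pass without embryo 2 or 3 of E16.5 either (0.1 and 0.067). Sox5, the close relative of Sox6, kept between 6.80 and 7.85 on all 12 arrays and measured 7.27, 6.99 and 6.93 at E16.5, against 7.42, 7.85 and 7.50 at E10.5 (change -0.52 ± 0.25 SE, adjusted p = 0.116).

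**Figure D3:**
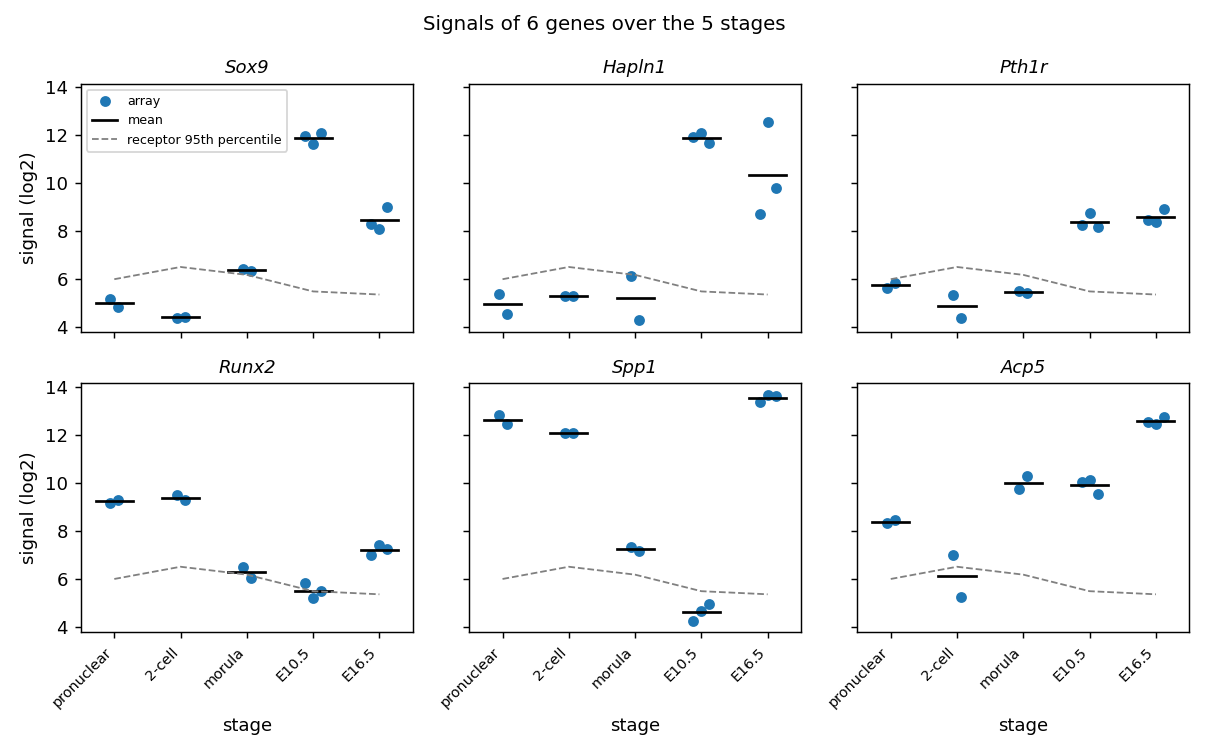
Log2 signal of 6 genes on each array (points) with the stage mean (bars) over the 5 stages; the dashed line is the 95th percentile of receptor probe sets. Sox9 and Hapln1 leave the dashed line by E10.5, Pth1r stays level at the last 2 stages, and Spp1 and Runx2 are high at the first 2 stages, lowest at E10.5 and higher again at E16.5.

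Among the 6 cartilage collagen genes, Col11a1 and Col11a2 were higher in E16.5 embryos and the other 4 did not pass. Col11a1, an alpha chain of the type XI collagen that sets fibril diameter (chr3:114030540-114220718), gave 10.49, 11.42 and 10.69 at E16.5, against 7.22, 7.60 and 7.08 at E10.5. It was the collagen that moved most, by 3.56 ± 0.29 (SE, adjusted p = 1.19e-07), from a level already above the range, and it had also risen to E10.5 from the morula stage by 1.40 ± 0.32 (adjusted p = 0.00176). Col11a2 (chr17:34039437-34066685), the second chain of type XI, had 7.81, 7.66 and 7.63 at E16.5 and 7.19, 6.79 and 7.06 at E10.5. That small rise of 0.68 ± 0.22 (SE, adjusted p = 0.0218) did not pass without embryo 2 of E10.5 (0.57, adjusted p = 0.103), without embryo 3 of E10.5 (0.0512) or without embryo 1 of E16.5 (0.066).

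Col2a1, the main collagen of cartilage (chr15:97975602-98004724), is the defining marker of the tissue. Its probe set read only 6.04, 6.79 and 6.41 in E16.5 embryos, against 6.35, 5.50 and 6.10 in E10.5 embryos. These groups overlap (0.43 ± 0.27 SE, adjusted p = 0.244). How well this single probe set follows Col2a1 RNA was not tested, so a low signal here does not show that the RNA was scarce. All 6 signals lie above the receptor percentile, 5.35 at E16.5 and 5.48 at E10.5, which embryo 2 of E10.5 barely exceeds. The chains of type IX collagen, which decorates the type II fibril, also overlapped between the stages. Col9a1 had 6.28, 8.01 and 7.23 at E16.5 and 6.46, 6.96 and 7.01 at E10.5. Col9a2 had 5.64, 6.79 and 5.27 at E16.5 and 5.78, 5.44 and 5.88 at E10.5. For Col9a3 the signals were 8.17, 9.31 and 7.49 at E16.5 and 7.70, 8.17 and 7.76 at E10.5. Their changes were 0.20 to 0.44 (adjusted p = 0.41 or higher).

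Of the 7 proteoglycan and other matrix genes of cartilage 5 were higher at E16.5, and Matn3 and Hapln1 did not pass. Epyc, epiphycan, a small proteoglycan of growth cartilage (chr10:97644068-97682454), measured 7.27, 9.95 and 7.56 in E16.5 embryos and 4.22, 4.28 and 4.60 in E10.5 embryos, at least 3.89 ± 0.52 higher (SE, adjusted p = 2.4e-05). Matn1, matrilin 1, an adaptor protein of cartilage matrix (chr4:130944385-130955476), had 6.16, 8.60 and 6.85 at E16.5, against 4.81, 5.15 and 4.94 at E10.5 (at least 2.24 ± 0.45 SE, adjusted p = 0.000903). In both genes embryo 2 of E16.5 stood above the other 2 of its stage. The SD of Epyc and Matn1 was 1.47 and 1.26 at E16.5, against 0.203 and 0.167 at E10.5. Their SE rests on 1 spread shared by all stages and understates that of the E16.5 embryos. Comp, a pentameric protein that binds collagen, had 6.93, 7.36 and 7.24 at E16.5 and 5.03, 5.13 and 5.10 at E10.5, a tight rise of at least 2.09 ± 0.25 (SE, adjusted p = 9.28e-06). Matn4 had 6.06, 6.24 and 6.24 at E16.5 and 4.31, 4.51 and 4.61 at E10.5 (at least 1.70 ± 0.23 SE, adjusted p = 2.9e-05).

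Acan, aggrecan, the large proteoglycan that gives cartilage its swelling pressure (chr7:79053483-79115099), had 6.95, 8.55 and 7.30 in E16.5 embryos, against 6.58, 5.99 and 6.62 in E10.5 embryos. The groups do not overlap, and the rise was 1.20 ± 0.35 (SE, adjusted p = 0.0127). Without embryo 2 of E16.5 it was 0.73 and no longer passed (adjusted p = 0.0517), and it did not pass without embryo 2 of E10.5 either (1.0, adjusted p = 0.0689). Matn3 read 5.03, 5.90 and 4.82 at E16.5, against 4.52, 4.96 and 4.29 at E10.5 (0.66 ± 0.31 SE, adjusted p = 0.12).

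Hapln1, the link protein that ties aggrecan to hyaluronan (chr13:89540636-89611832), took another course. It rose with Sox9 to E10.5, to 11.92, 12.09 and 11.69, against 6.14 and 4.30 in morulae, by at least 6.69 ± 0.78 (SE, adjusted p = 3.02e-06). At E16.5 its 3 embryos had 8.73, 12.53 and 9.78, the first and last below all E10.5 embryos and embryo 2 above them. The change of -1.56 ± 0.70 (SE) did not pass (adjusted p = 0.0978), and it passed without embryo 2, at -2.65 (adjusted p = 0.00056), and with array weights (0.0474). The SD of Hapln1 at E16.5 was 1.96, and this SE too rests on the shared spread.

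Among the growth plate genes, the markers of hypertrophy rose, and the signal Ihh and the receptor Pth1r did not pass. Col10a1, the type X collagen made by hypertrophic chondrocytes (chr10:34389981-34397085), had 8.12, 9.21 and 8.75 in E16.5 embryos, against 3.32, 3.77 and 4.13 in E10.5 embryos, at least 4.95 ± 0.36 higher (SE, adjusted p = 3.26e-08). Panx3, a channel protein of prehypertrophic chondrocytes and osteoblasts (chr9:37659902-37669222), had 8.95, 9.08 and 8.85 at E16.5 and 3.96, 4.67 and 3.90 at E10.5, at least 4.78 ± 0.29 higher (SE, adjusted p = 4.96e-09). Both genes were within the receptor range at all 4 earlier stages.

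Pth1r, the receptor of parathyroid hormone and of its related peptide, which holds chondrocytes back from hypertrophy (chr9:110722085-110747145), rose earlier. It measured 8.25, 8.75 and 8.18 in E10.5 embryos, against 5.51 and 5.42 in morulae (at least 2.93 ± 0.32 SE, adjusted p = 1.33e-06). At E16.5 it had 8.48, 8.37 and 8.91, which overlaps E10.5 (0.19 ± 0.28 SE, adjusted p = 0.66). Ihh, Indian hedgehog, the signal of prehypertrophic chondrocytes, lay within the receptor range at all 5 stages, with 5.23, 5.38 and 5.26 at E16.5, against 5.09, 4.92 and 5.37 at E10.5 (adjusted p = 0.7).

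Of the 4 osteoblast transcription factors, Runx2 and Sp7 were higher in E16.5 embryos. Sp7, osterix, which acts after Runx2 and is needed for bone (chr15:102356609-102366968), had 7.0, 7.34 and 6.18 at E16.5 and 4.90, 4.48 and 4.31 at E10.5, at least 2.28 ± 0.29 higher (SE, adjusted p = 1.64e-05). Runx2 (chr17:44495987-44814797) had 7.01, 7.39 and 7.24 at E16.5, against 5.82, 5.18 and 5.49 at E10.5, where 1 embryo lay clearly above the percentile (at least 1.72 ± 0.24 SE, adjusted p = 4.42e-05). Dlx5 and Dlx6, paired homeobox genes of the branchial arches and of osteoblasts, stayed within the receptor range at E16.5. Dlx5 had 5.37, 4.41 and 5.74 there and 5.88, 5.00 and 5.01 at E10.5 (adjusted p = 0.844), and Dlx6 had 4.89, 5.72 and 4.60 there and 5.26, 4.73 and 5.23 at E10.5 (adjusted p = 0.999).

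Of the 7 osteoblast and bone matrix genes 5 rose, and the osteocalcin genes did not pass. Besides Ibsp, Spp1 and Ogn these were Omd and Alpl. Omd, osteomodulin, a keratan sulphate proteoglycan of mineralized matrix (chr13:49582747-49592611), had 7.80, 7.81 and 7.34 in E16.5 embryos and 5.64, 5.07 and 4.66 in E10.5 embryos, at least 2.52 ± 0.29 higher (SE, adjusted p = 5.53e-06). Alpl, the alkaline phosphatase that breaks down the mineralization inhibitor pyrophosphate (chr4:137741731-137796384), had 7.75, 6.42 and 7.90 at E16.5, against 5.79, 5.64 and 5.51 at E10.5. Embryo 2 lies lowest of the E16.5 embryos but above all of E10.5, and the rise was 1.71 ± 0.41 (SE, adjusted p = 0.00366).

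Bglap and Bglap2 encode osteocalcin, a late product of osteoblasts. Bglap had 5.59, 6.11 and 6.23 in E16.5 embryos, against 5.32, 5.29 and 5.32 in E10.5 embryos (0.66 ± 0.37 SE, adjusted p = 0.192). Bglap2 had 5.76, 6.13 and 6.37 in E16.5 embryos, against 5.41, 5.37 and 5.15 in E10.5 embryos (0.77 ± 0.32 SE, adjusted p = 0.0719). In both genes every E16.5 embryo was above every E10.5 embryo, with a mean change below 1 log2 unit. Bglap2 passed in some alternatives, among them arrays centred on the receptors (adjusted p = 0.0437) or on the upper quartile (0.047). With quantile normalization its change was 0.44 and did not pass (0.346). Bglap and Bglap2 passed with the arrays of these 2 stages alone (0.0442 and 0.0213). The genes are near-identical copies, and it was not tested whether the probes of each read the other's RNA.

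The 3 genes of osteocytes and phosphate handling divided. Dmp1, a matrix phosphoprotein of osteocytes and dentine (chr5:104202617-104214102), had 7.29, 6.58 and 7.33 in E16.5 embryos, against 4.87, 4.02 and 5.02 in E10.5 embryos, at least 2.43 ± 0.31 higher (SE, adjusted p = 1.59e-05). Phex, a membrane endopeptidase whose loss causes phosphate wasting (chrX:157162075-157415312), had 6.44, 5.74 and 6.34 at E16.5 and 4.31, 4.64 and 4.34 at E10.5 (at least 1.74 ± 0.34 SE, adjusted p = 0.000768). Mepe, an osteocyte phosphoglycoprotein (chr5:104325329-104338611), had 3.98, 4.30 and 3.91 at E16.5 and 5.20, 4.44 and 5.10 at E10.5. Every one of these signals is within the receptor range, so the fall of -0.85 ± 0.26 (SE, adjusted p = 0.0184) can follow the background. It did not pass without embryo 1 or 3 of either stage (adjusted p = 0.0548 to 0.0915) or when arrays were centred on the receptors (0.0577) or on the upper quartile (0.0598).

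All 4 genes of osteoclasts and resorption were higher in E16.5 embryos, with a median change of 6.09. Besides Ctsk and Mmp13, Mmp9, gelatinase B, which osteoclasts and neutrophils secrete (chr2:164940780-164955850), had 9.09, 7.80 and 9.97 at E16.5 and 3.86, 3.59 and 4.07 at E10.5, at least 5.11 ± 0.41 higher (SE, adjusted p = 1.14e-07). Acp5, the tartrate-resistant acid phosphatase by which osteoclasts are stained (chr9:22126727-22135746), had 12.56, 12.47 and 12.74 at E16.5 and 10.05, 10.14 and 9.52 at E10.5, a rise of 2.69 ± 0.36 (SE, adjusted p = 2.44e-05) from a level well above the range.

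Markers of macrophages and neutrophils rose beside these 4 genes. Of 12 such markers 11 were higher in E16.5 embryos (91.7%, where 17.3% of all probe sets were). Their mean signal was 8.80, 8.23 and 8.76 in E16.5 embryos, against 5.16, 5.51 and 5.34 in E10.5 embryos. Above the receptor range on every array were 11 of the 12 at E16.5 and 4 at E10.5. Of all probe sets 60.4% were above it at E16.5 and 56% at E10.5. Cd14 was within the range at both stages (4.17 to 4.59 at E16.5, against 3.99 to 4.56 at E10.5), and S100a9, an abundant neutrophil protein, had 12.87, 12.35 and 13.59 at E16.5 and 4.90, 4.70 and 5.14 at E10.5. Their part in the signals of Mmp9, Ctsk, Acp5 and Spp1 was not tested.

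Some of the members had strong signals long before any skeleton exists. Spp1 had 12.84 and 12.44 in pronuclear embryos, 12.09 and 12.10 in 2-cell embryos and 7.31 and 7.14 in morulae, before the 4.24 to 4.94 of E10.5. It fell by 4.87 ± 0.30 from the 2-cell stage to the morula (SE, adjusted p = 5.93e-09) and again from there to E10.5 (-2.62 ± 0.27 SE, a lower bound in size, adjusted p = 8.75e-07). Its pronuclear and 2-cell signals stood nearer to those of E16.5 than to those of morulae. Runx2 behaved alike at the start, with 9.18 and 9.30 in pronuclear embryos, 9.48 and 9.29 in 2-cell embryos and 6.50 and 6.04 in morulae. Its change to the morula was -3.12 ± 0.30 (SE, a lower bound in size, adjusted p = 6.95e-07), and all 4 arrays of the first 2 stages lie above the 7.01 to 7.39 of E16.5. A further change to E10.5 of -0.78 ± 0.27 (adjusted p = 0.0271) had both stages within the receptor range as defined. Morula replicate 1 (6.50) and embryos 1 and 3 of E10.5 (5.82 and 5.49) still lay above the percentile of their stage. The change was -0.30 when arrays were centred on the receptors (adjusted p = 0.44).

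Acp5 dipped at the 2-cell stage. It had 8.31 and 8.45 in pronuclear embryos, 6.98 and 5.24 in 2-cell embryos and 9.73 and 10.28 in morulae. The first change was -2.27 ± 0.44 (SE, a lower bound in size, adjusted p = 0.000765), or -1.4 without replicate 2 of the 2-cell stage (adjusted p = 0.0106). The rise that followed was at least 3.90 ± 0.44 (SE, adjusted p = 3.7e-06). From the morula to E10.5 it did not pass (-0.10 ± 0.40 SE, adjusted p = 0.852). Sox6 had 7.94 and 6.65 in 2-cell embryos, against 8.40 and 8.78 in pronuclear embryos. The change of -1.29 ± 0.43 (SE, adjusted p = 0.0294) was -0.65 without replicate 2 of the 2-cell stage (adjusted p = 0.314) and -1.94 without replicate 1 (0.00439).

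Over the whole set the early steps held few passes. In 2-cell embryos 3 of 38 members were higher than in pronuclear embryos (7.89%, where 16.1% of all probe sets were) and 2 were lower (5.26%, where 19.6% of all probe sets were). The 3 were Dlx6, Phex and Ctsk, each with both stages within the receptor range, and the 2 were Sox6 and Acp5. In morulae 5 were higher than in 2-cell embryos (13.2%, where 20.0% of all probe sets were) and 2 were lower (5.26%, where 20.2% of all probe sets were). The 5 were Sox9, Acp5, Bglap, Bglap2 and Ibsp, the last 3 with both stages within the range, and the 2 were Runx2 and Spp1. Bglap, at 1.90, was 1.24 without replicate 1 of the 2-cell stage (adjusted p = 0.0593) and 1.36 without replicate 1 of the morula (0.0554). Bglap2, at 1.09, was 0.64 (adjusted p = 0.294) and 0.55 (0.354) without the same arrays, and it also did not pass with arrays centred on the receptors (0.0577).

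In E10.5 embryos 7 members were higher than in morulae (18.4%, where 25.0% of all probe sets were): Sox6, Sox9, Col11a1, Hapln1, Pth1r, Dlx5 and Omd. Another 5 were lower (13.2%, where 26.8% of all probe sets were): Runx2, Alpl, Ibsp, Spp1 and Mmp9. Dlx5, Omd, Runx2, Ibsp and Mmp9 had both stages within the receptor range. Mmp9, at -1.19 (adjusted p = 0.0405), was -0.71 centred on the receptors (0.274) and -0.83 without replicate 1 of the morula (0.271), and did not pass with quantile normalization (0.0966) or without any 1 of the E10.5 embryos (0.054 to 0.11). Sox6, at 1.02 ± 0.40 (SE, adjusted p = 0.0423), did not pass with array weights (0.0512), quantile normalization (0.68, adjusted p = 0.193) or arrays centred on the upper quartile (0.77, adjusted p = 0.133). It did not pass either without 1 of the 2 morula arrays (0.077 and 0.19) or without embryo 2 or 3 of E10.5 (0.147 and 0.122). Stage here goes with single embryos against pools and with a date in the column names, whose meaning is not stated, and these cannot be told apart. Scaling mattered most at this step: the median change of all probe sets was -0.17 as deposited, 0.31 with arrays centred on the receptors and -0.42 with arrays centred on the upper quartile, and the share of calls that were higher was 48.3%, 67.1% and 39.1%. Members higher then numbered 7, 14 and 6, and members lower 5, 2 and 9.

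Alpl had 5.79, 5.64 and 5.51 in E10.5 embryos, against 6.46 and 7.46 in morulae (-1.31 ± 0.46 SE, adjusted p = 0.0258). That call did not pass without replicate 2 of the morula stage (-0.82, adjusted p = 0.256) or centred on the receptors (-0.83, adjusted p = 0.2). Alppl2, the related alkaline phosphatase of early embryos, moved far more: it had 4.30, 4.19 and 4.67 at E10.5, against 16.60 and 16.89 in morulae. Whether the Alpl probes read any Alppl2 RNA was not tested. Dlx5 and Omd, each within the receptor range in morulae and at E10.5, were higher by 1.45 ± 0.41 (adjusted p = 0.0073) and 1.43 ± 0.33 (adjusted p = 0.0017), and Dlx5 did not pass without replicate 1 of the morula stage (1.06, adjusted p = 0.103).

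Embryo 2 of E16.5 stood high in most cartilage collagen and matrix members, and not in the bone members as a set. Embryo 2 was the highest of the 3 in 11 of the 13 cartilage collagen and matrix members (84.6%, against 39.7% of all probe sets), and it exceeded the mean of the other 2 by a median of 1.25 there, against 0.01 over all probe sets. In the 18 bone matrix, osteocyte, osteoclast and osteoblast factor members it was highest in 7 (38.9%) with a median of 0.05. That median holds shifts of both signs, such as -1.73 for Mmp9 and 0.97 for Dlx6. It does not measure how far the embryos differed. Hapln1 had the widest range over the 3 embryos, 3.80 log2 units, which 0.036% of all probe sets exceeded. Epyc had 2.68 (0.149%), Matn1 2.43 (0.266%), Mmp9, of the resorption genes, 2.17 (0.504%), Col9a3 1.82 (1.61%), Col9a1 1.72 (2.18%) and Acan 1.59 (3.31%). Alpl had 1.47 (5%) and Dlx5 1.33 (7.66%). Some cartilage genes had narrow ranges: Comp 0.42 (70.3%), Matn4 0.19 (93%) and Col11a2 0.17 (93.7%). Ogn was at the other end with 0.03, which 99.8% of probe sets exceeded.

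Embryo 2 was the lowest in 9 of the 25 members of other roles (36%, against 38.3% of all probe sets). Against the mean of the other 2, Mmp9 differed by -1.73, Alpl by -1.40, Dlx5 by -1.15 and Ctsk by -1.12. The other cartilage matrix genes that are not members were highest in embryo 2 in 8 of 18 (44.4%, median 0.27), and the macrophage and neutrophil markers in 1 of 12 (8.33%, median -0.35). At E10.5 the 13 cartilage members were highest in embryo 2 in 6 cases (46.2%, median 0.06, where 34.5% of all probe sets were). With 1 array per embryo these differences are a description, with no test.

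**Figure D4:**
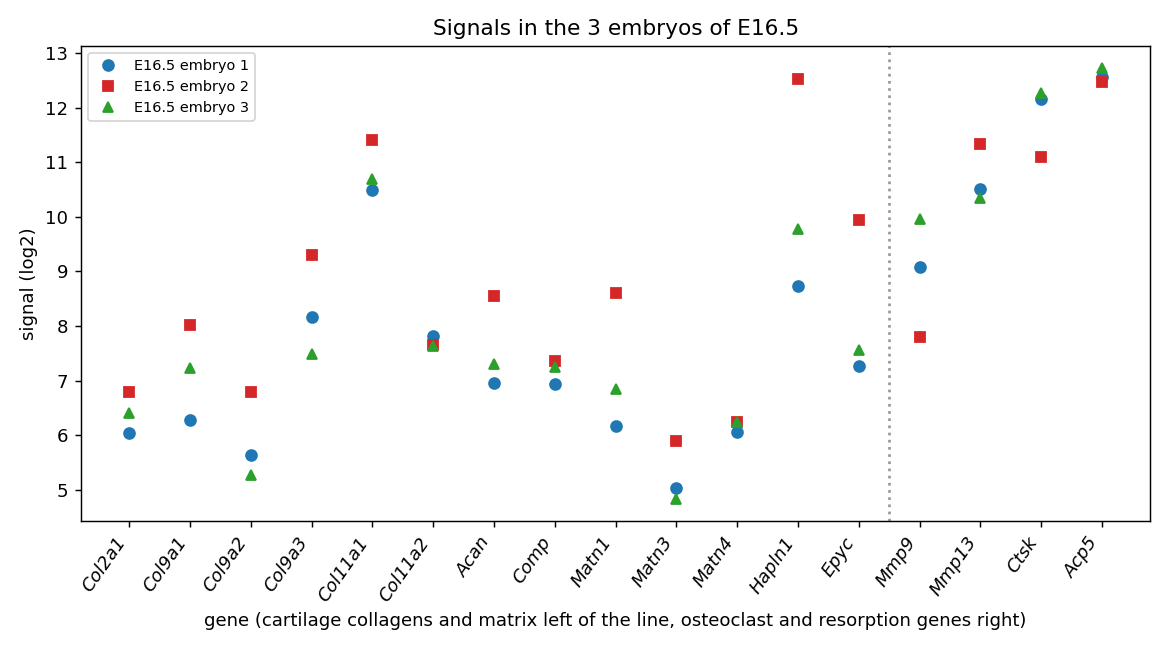
Log2 signal of the 13 cartilage collagen and matrix genes and of the 4 osteoclast and resorption genes in each of the 3 embryos of E16.5 (symbols). Embryo 2 (squares) is the highest in 11 of the 13 cartilage genes, with Hapln1 at 12.53, and the lowest for Mmp9, Ctsk and Acp5.

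Several members are neighbours in the genome, and neighbours did not always move alike. On chromosome 5 Dmp1, Ibsp, Mepe and Spp1 follow each other, with gaps of 85.1, 13.9 and 96.5 kb and 0 other protein-coding genes wholly between any pair of neighbours in RefSeq. This family of acidic phosphoproteins of bone and teeth is known to have arisen by duplication. Ibsp and Spp1 had the largest rises of the set in E16.5 embryos, Dmp1 rose by at least 2.43, and Mepe, between Ibsp and Spp1, stayed within the receptor range. In pronuclear embryos Spp1 had 12.84 and 12.44, while Ibsp (3.79 and 4.03) and Mepe (3.78 and 4.05) lay within the range and Dmp1 (6.26 and 5.68) at its edge. On chromosome 13 Omd and Ogn lie 15.5 kb apart and rose by 2.52 and 8.66. On chromosome 3 Bglap2 and Bglap lie 4.8 kb apart and on chromosome 6 Dlx6 and Dlx5 lie 9.2 kb apart, and these 4 did not pass in E16.5 against E10.5 embryos.

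**Figure D5:**
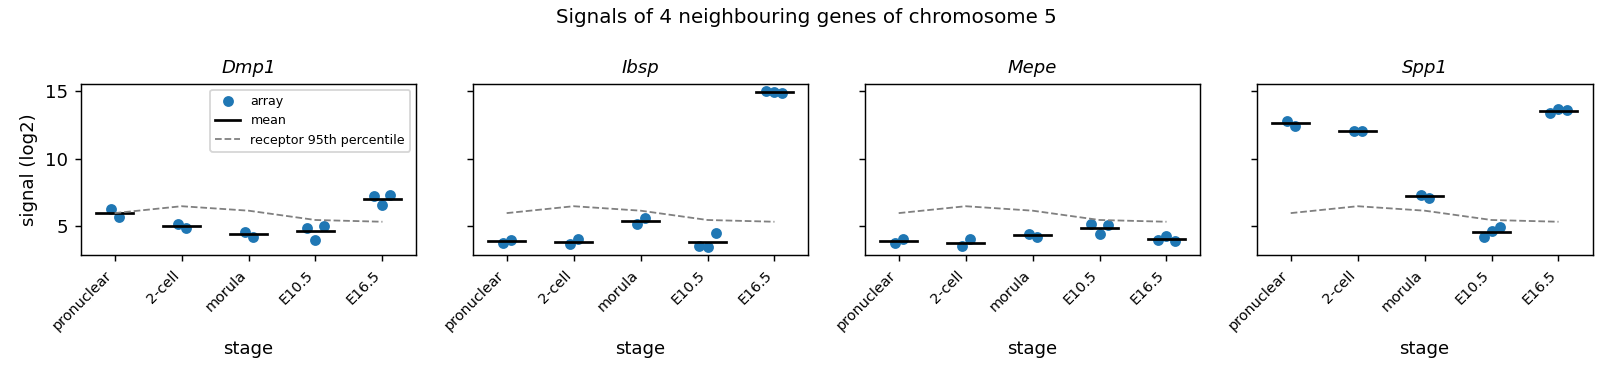
Log2 signal of 4 neighbouring genes of chromosome 5, in genomic order, on each array (points) with stage means (bars) and the 95th percentile of receptor probe sets (dashed line). Ibsp leaves the dashed line at E16.5 alone, Spp1 lies above it at every stage but E10.5, and Mepe stays below it throughout.

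Genes of the same pathways outside the set are given from 4 lists. Of 18 other cartilage matrix and sulphation genes 13 were higher in E16.5 than in E10.5 embryos (72.2%, where 17.3% of all probe sets were). Only 1 was lower (5.56%, where 20.1% of all probe sets were), and the median change was 1.33. Fmod, fibromodulin, a collagen-binding proteoglycan, had a mean of 9.59 in E16.5 embryos and 4.61 in E10.5 embryos (at least 4.98 ± 0.30 SE, adjusted p = 4.03e-09). Lect1, chondromodulin, an inhibitor of vessel growth in cartilage, had 9.93 in E16.5 embryos and 5.50 in E10.5 embryos (at least 4.43 ± 0.49 SE, adjusted p = 3.32e-06). Hapln3, a link protein, had 6.13 in E16.5 embryos and 6.78 in E10.5 embryos (-0.65 ± 0.24 SE, adjusted p = 0.0398). Of 22 osteoblast regulators and mineralization genes 9 were higher (40.9%) and 5 lower (22.7%), median 0.27. The lower share was near the 20.1% of all probe sets, while 17.3% of all probe sets were higher. The chains of type I collagen, Col1a1 and Col1a2, rose by 6.60 ± 0.26 and 5.90 ± 0.39 (SE, adjusted p = 3.43e-11 and 1.14e-08), and Twist1, which restrains osteoblast differentiation, changed by -2.23 ± 0.22 (adjusted p = 1.01e-06).

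The list of osteoclast formation and acid secretion had 7 of 17 higher in E16.5 than in E10.5 embryos (41.2%). Over all probe sets the share was 17.3%. The median change of the list was 0.64, and its other 10 genes did not pass. Atp6v0d2, a proton pump subunit of osteoclasts, rose by at least 4.43 ± 0.27 (SE, adjusted p = 4.54e-09), and Csf1r, the receptor of the macrophage growth factor, which also stands in the macrophage list, by at least 3.44 ± 0.32 (SE, adjusted p = 6.59e-07). Of the cartilage signals and regulators 3 of 19 were higher (15.8%, where 17.3% of all probe sets were) and 5 lower (26.3%, where 20.1% of all probe sets were), median 0.19. Mef2c, a factor of hypertrophic chondrocytes and of muscle, rose by 4.06 ± 0.37 (SE, adjusted p = 4.31e-07), while Ptch1, the hedgehog receptor and target, changed by -1.58 ± 0.27 (adjusted p = 0.000246) and Bmpr1b, a BMP receptor of condensations, by -1.28 ± 0.33 (adjusted p = 0.00548).

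Against morulae, E10.5 embryos were higher in 11 of 22 osteoblast regulators (50%) and lower in 3 (13.6%). Over all probe sets 25.0% were higher and 26.8% lower. Bmp4, a bone morphogenetic protein, rose by at least 5.97 ± 0.42 and Sparc, osteonectin, by 5.51 ± 0.25 (SE, adjusted p = 1.3e-08 and 1.02e-10), and Sfrp4, a secreted Wnt inhibitor, changed by -3.56 ± 0.28 (adjusted p = 4.57e-08). Of the cartilage regulators 4 of 19 were higher and 4 lower (21.1% each, where 25.0% and 26.8% of all probe sets were). Ptch1 rose by 4.50 ± 0.30 (SE, adjusted p = 7.08e-09), the probe set annotated to both Trps1 and Mir1907 by at least 5.63 ± 0.27 (adjusted p = 1.43e-10), and Barx2, a homeobox gene, changed by -4.31 ± 0.40 (adjusted p = 2.49e-07). The other cartilage matrix list had 2 of 18 higher (11.1%) and 4 lower (22.2%), both below the shares of all probe sets. Chst11, a chondroitin sulphotransferase, changed by 1.23 ± 0.30 (SE, adjusted p = 0.00299) and Lect1 by -3.12 ± 0.54 (adjusted p = 0.00017). Cilp, of the cartilage intermediate layer, changed by -1.67 ± 0.36 (adjusted p = 0.0012) with both stages within the receptor range. The osteoclast list had 5 of 17 higher (29.4%, where 25.0% of all probe sets were) and 2 lower (11.8%, where 26.8% were). Car2, carbonic anhydrase of red cells and osteoclasts, rose by at least 8.43 ± 0.30 and Csf1 by at least 2.97 ± 0.40 (SE, adjusted p = 8.3e-12 and 1.39e-05), and Ostm1, a chloride channel partner, changed by -4.47 ± 0.35 (adjusted p = 4.21e-08).

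Markers of other tissues that share members' transcripts also moved. Tendon and ligament markers were higher in E16.5 embryos in 2 of 4 (50%, where 17.3% of all probe sets were). Among them was Tnmd, tenomodulin, with 12.04, 11.14 and 11.62 in E16.5 embryos and 3.89, 4.08 and 4.37 in E10.5 embryos. Neural progenitor and glial markers, which include cells that carry Sox9, were above the receptor range in 6 of 6 at both stages, and their mean lay between 8.40 and 8.79 at E16.5, against 10.26 to 10.29 at E10.5. Of these 6, 4 were lower (66.7%, where 20.1% of all probe sets were) and 1 higher at E16.5 (16.7%, where 17.3% were). Notochord markers, from a tissue that also makes cartilage matrix, were lower in 2 of 4 (50%, where 20.1% of all probe sets were). Their means were 6.02 to 6.19 at E16.5, against 6.52 to 6.91 at E10.5. Trophoblast and decidua markers stand for a tissue that carries Spp1. At E16.5 1 of 6 was above the range, Cdx2, whose signals of 6.13, 5.44 and 5.74 were near it, and 0 were at E10.5. Over all probe sets 60.4% were above it at E16.5 and 56% at E10.5. At the pronuclear, 2-cell and morula stages 1 of the 6 was above it, where 44.9% to 50.6% of all probe sets were. Prl8a2, that marker at the first 2 stages, had 9.01 and 8.88 in pronuclear and 10.43 and 10.22 in 2-cell embryos, against 3.72 and 3.76 in morulae. The part of these tissues in the members' signals was not tested.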

How the data were processed

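Per the file headers, the authors summarized the 12 arrays with SST-RMA into gene-level log2 signals, annotated with na36 on mm10. Per the submitters' processing notes, Transcriptome Analysis Console was used, in a version not given in the sources used here. The deposited p-values and stage flags were not used for any result, and the other deposited table held the same signals (0 probe sets differed by over 1e-4).

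Stages were taken from the labels. A 5-stage model without a block was fitted with limma 3.58.1 in R 4.3.3 (lmFit, eBayes) to all 22206 probe sets, with consecutive stages as contrasts and Benjamini-Hochberg adjustment over all probe sets at 0.05. All stages share 1 estimate of spread, so an SE can understate the spread of a stage whose arrays differ more than the rest. The procedure was tested on simulated data. Deviations from the stage means were not alike in same-numbered samples (21 pairs, correlations -0.113 to 0.051). The 2 arrays of an early stage mirror each other around their mean, so pairs between early stages repeat each other. This check cannot exclude that samples were paired. All 38 members are reported. Of other genes on the lists, the 2 largest changes in a list's main direction and the largest opposite one are named. Alppl2, Tnmd, Cd14, S100a9, Prl8a2 and Cdx2 were chosen after their values were seen. Members and lists were chosen with earlier results of these data known. List symbols found were 18 of 21 for other cartilage matrix, 22 of 23 for osteoblast regulators and all for the rest. Alternatives changed the normalization, filter, feature rule, samples, fit options, block and threshold, and left out each array. Arrays give no read depth, and their number limits the precision.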

Additional observations from a re-analysis of the deposited data

How the results depend on the processing

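Counts of passing members between E16.5 and E10.5 embryos held best: 23 higher ranged from 20 to 25 over all alternatives, and 21 of the 25 passing members passed in every alternative (5 of 7 for morulae against 2-cell embryos, 7 of 12 for E10.5 embryos against morulae and 2 of 5 for 2-cell against pronuclear embryos). The 4 that did not were Sox6, Col11a2, Acan and Mepe. No passing member changed sign. Small counts moved. For E16.5 against E10.5 the 2 lower members became 1 with arrays centred on receptors or on the upper quartile, with dim probe sets filtered out (15720 kept, without Mepe), at an adjusted p of 0.01 and with a minimum of 1 log2 unit, 3 with quantile normalization (Sox5 added, adjusted p = 0.0307) and with array weights (Hapln1 added, 0.0474), and 1 to 3 on leaving out an array. For E10.5 against morulae the 7 higher became 14 centred on receptors, and the 5 lower became 2 centred on receptors, 9 on the upper quartile, 2 at an adjusted p of 0.01 and 2 to 7 on leaving out an array. For morulae against 2-cell embryos the 5 higher became 9 on the upper quartile. For 2-cell against pronuclear embryos the 3 higher became 1 centred on receptors, 1 with early arrays only, 1 at an adjusted p of 0.01 and 1 to 3 on leaving out an array, and the 2 lower became 1 on the upper quartile, 1 with these 2 stages only, 1 with early arrays only, 1 at an adjusted p of 0.01, 3 with quantile normalization, centred on receptors, with dim probe sets filtered out and with the replicate block, and 1 to 3 on leaving out an array. The share of calls over all probe sets that were higher was 45.1% for 2-cell against pronuclear embryos as deposited, 36.8% centred on receptors and 52.8% on the upper quartile, and 60.1% on the upper quartile, against 49.7%, for morulae against 2-cell embryos. With the replicate number as a block, 22 members were higher and 2 lower for E16.5 against E10.5: Sox6 was lost (adjusted p = 0.0505). Arrays of the same period could not be used alone for E10.5 against morulae, which lie in different periods. The causes of these moves were not tested. The number of arrays, 2 or 3 per stage, and the receptor range limit what can be measured of dim members.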
